A study of Mus musculus with 2 samples.

Results

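Haemostasis genes of the vessel wall were described in single cells of the mouse aortic arch: Vwf, F8, F3, Tfpi, Procr, Plat, Pros1 and F13a1. They were taken by symbol from the gene lists of the count tables, which held all 8 of them among 31053 listed genes. The cells came from 16-week-old C57BL/6 mice that were all male and lacked Apoe (Apoe-/-), the control group included, so that no group with normal Apoe was measured. The control group (ND) had a normal diet and the HFD group a high-fat, high-cholesterol diet. Each group was a single library of dissociated arch in which the cells of 2 aortas were pooled. No difference between the diets therefore had a replicate check, no p-value was computed, and intervals throughout are 95% intervals that cover counting error only.

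These genes act at the surface of the vessel. Von Willebrand factor (Vwf) is stored in endothelial granules, tethers platelets and carries coagulation factor VIII (F8). Tissue factor (F3) starts coagulation when blood meets the cells outside the endothelium, and tissue factor pathway inhibitor (Tfpi) restrains it. The endothelial protein C receptor (Procr) and protein S (Pros1) belong to the anticoagulant protein C pathway. Tissue plasminogen activator (Plat) starts the breakdown of fibrin, and the A subunit of factor XIII (F13a1), a transglutaminase, cross-links it.

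In GENCODE M21 (GRCm38) all 8 genes are annotated as protein-coding. Vwf lies on chromosome 6 (125546774 to 125686679, plus strand), F8 on chromosome X (75172715 to 75382615, minus), F3 on chromosome 3 (121723537 to 121735048, plus) and Tfpi on chromosome 2 (84432855 to 84476775, minus). Procr lies on chromosome 2 (155751117 to 155755471, plus), Plat on chromosome 8 (22757727 to 22782844, plus), Pros1 on chromosome 16 (62854307 to 62929346, plus) and F13a1 on chromosome 13 (36867178 to 37050244, minus). F8 overlaps Fundc2 on the other strand, and F13a1 overlaps Gm30489 and Gm49144 on the other strand. On its own strand F8 overlaps Gm8522, which is not among the counted genes. The sources used here do not state whether strand was used in counting, so reads of F8 and F13a1 are uncertain to that extent. Counts are 3′ tags, and each gene is compared with itself across cells, not with another gene.

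The libraries held 10234 (ND) and 14225 (HFD) barcodes, of which 45.6% and 79.9% had more than 30% mitochondrial UMIs (unique molecular identifiers, the counted molecules). The limits of the study (200 genes and 200 UMIs as minima, 30% mitochondrial UMIs as maximum) left 5416 and 2739, with 27137322 and 17191279 UMIs. A kept barcode had a median of 3732.5 (ND) and 5336 (HFD) UMIs, of which 16.8% and 21.9% were mitochondrial at the median. The libraries shared 39 barcode sequences, 1 of them among the kept barcodes.

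Barcodes were put in a cell class when at least 3 of the 6 markers of the class had a UMI, at most 2 of any other class had one, and the class led by at least 2 markers. None of the 8 genes was a marker. Classes named here are gates on these markers. Endothelial barcodes numbered 2293 (ND) and 1161 (HFD), fibroblasts 946 and 399, and macrophages 324 and 443. The median barcode of these 3 classes had 5 or 6 of its 6 markers and 1 of the best other class. Endothelial barcodes were split into luminal (Cytl1, Vcam1, Fbln5, Sulf1; 206 and 81 barcodes), arteriolar (Stc1, Hey1, Sema3g, Gja4; 339 and 263), capillary (Gpihbp1, Cd36, Rbp7, Cd300lg; 1697 and 799) and lymphatic (25 and 8), each with at least 2 of its 4 markers and, except for lymphatic ones, more than of the subgroup it was set against. A further 26 and 10 fell in no subgroup. Of the arteriolar markers Gja4 was higher in luminal (506 and 303 CPM) than in arteriolar barcodes (25.9 and 32.0 CPM), so that the arteriolar group rests mainly on the other 3 and goes by the name of its gate only. Arteriolar barcodes also held the capillary markers at similar or higher levels than capillary ones. Rbp7 was at 1505 and 1859 CPM against 638 and 1032 CPM, and Cd36 at 3845 and 5564 CPM against 4002 and 5514 CPM. The capillary markers therefore do not separate these groups. Macrophages were split into resident (Lyve1, Folr2, Cbr2, Mrc1; 238 and 203) and foam (Trem2, Gpnmb, Spp1, Fabp5; 9 and 166). Mural barcodes were few (30 and 7), so smooth muscle was barely measured. A further 52 barcodes of ND and none of HFD carried airway markers. Levels are given as CPM, the UMIs of the gene scaled to a total of 1000000 UMIs in the group. A smaller number of cells and less RNA per cell cannot be told apart in a group's total, and CPM is relative to that total.

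**Figure D1:**
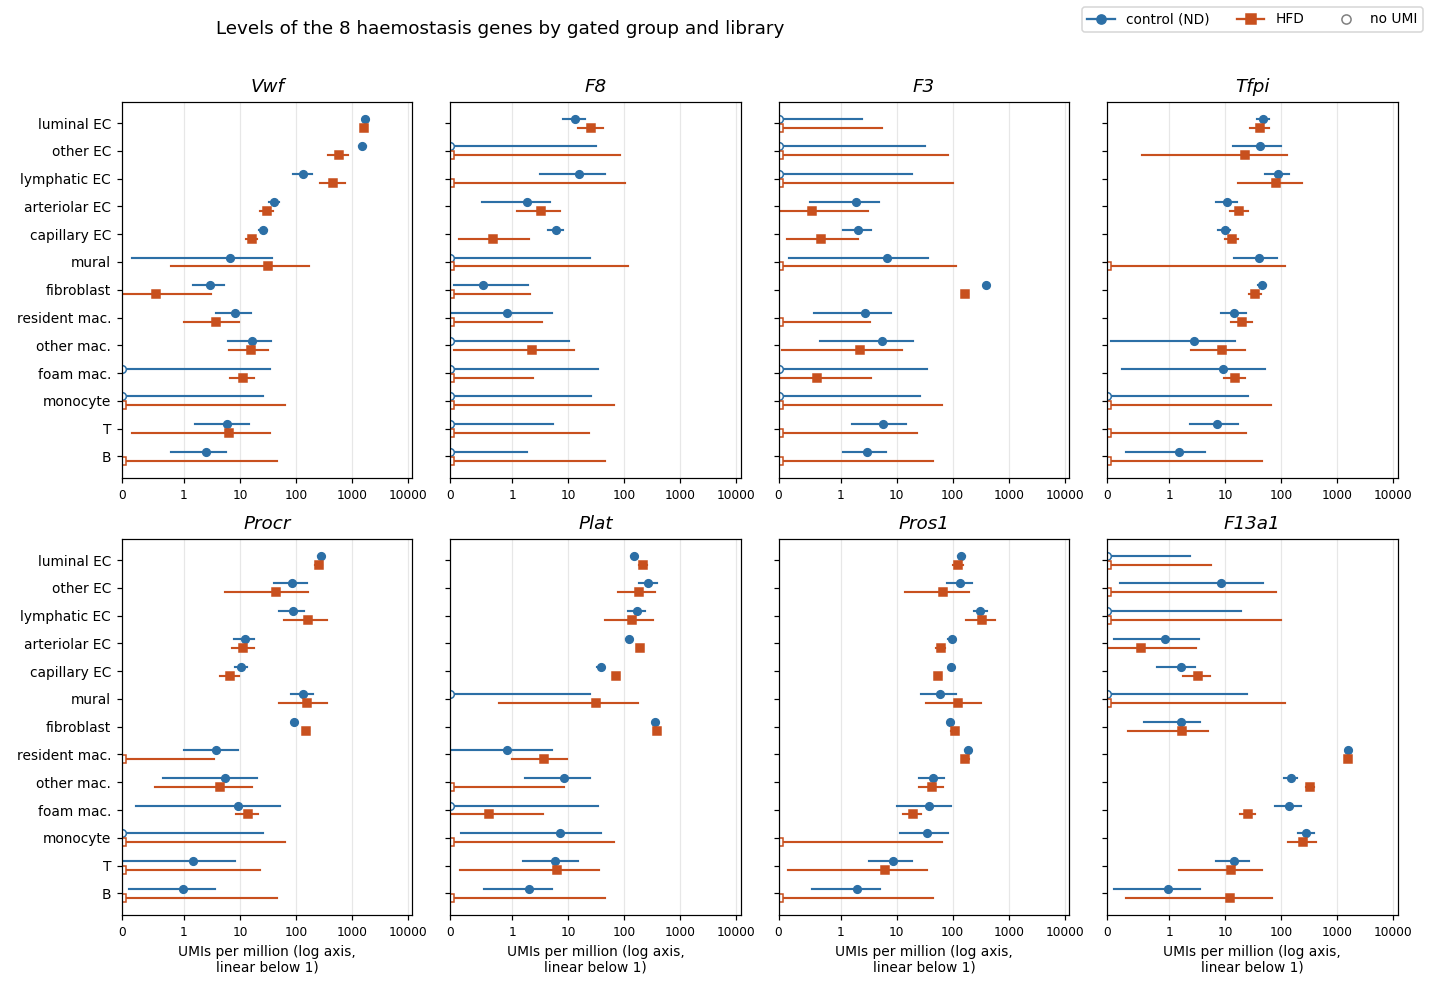
Level of each gene (CPM, log axis that is linear below 1) in 13 gated groups, with circles for the control (ND) library, squares for the HFD library, open symbols where no UMI was counted and bars for 95% Poisson intervals. Vwf sat above 1000 in luminal endothelium in both libraries, F3 lay above 100 in fibroblasts with no UMI in luminal endothelium, and F13a1 exceeded 1000 in resident macrophages.

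Vwf was highest in the luminal endothelium, and there its level differed between the diets by less than the counting interval. It was at 1687 CPM (1623 to 1753) in ND and 1617 CPM (1521 to 1716) in HFD. Lymphatic barcodes were at 133 and 465 CPM on 26 and 17 UMIs, which came from 3 of 25 and 4 of 8 barcodes. Arteriolar barcodes were at 41.2 and 30.4 CPM and capillary barcodes at 25.8 and 16.1 CPM. Endothelial barcodes in no subgroup held 1530 and 581 CPM. The ranges of luminal and lymphatic barcodes did not overlap, nor did those of arteriolar and capillary ones. Of the 56 arteriolar UMIs of HFD, 27 came from a single barcode, so the arteriolar and capillary separation leans on that barcode. Luminal exceeded capillary endothelium 65.5-fold in ND (56.2 to 76.7) and 100.5-fold in HFD (78.8 to 129.8).

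Single barcodes showed the same split. Luminal barcodes had a median of 10 Vwf UMIs in each library, with a highest value of 82 (ND) and 58 (HFD), and 4 barcodes in each had none. The share with a Vwf UMI was 98.1% and 95.1%, and after thinning every barcode to 1000 UMIs it was 73.5% and 72.8%. Among capillary barcodes the share was 5.89% and 3.13%, with a highest value of 19 and 13 UMIs. T barcodes, which should lack the gene, had a Vwf UMI in 4 of 236 and 1 of 25, at median depths of 2577.5 and 5351 UMIs, against 3046 and 4998 in capillary barcodes. The HFD share of T barcodes (4%, 0.10 to 20.4) rests on too few barcodes to place the capillary share (2.03 to 4.58) above or below it. HFD fibroblasts, at a median of 4363 UMIs, had a Vwf UMI in 1 of 399 barcodes (0.25%, up to 1.39), below the capillary share. HFD macrophages, at a median of 5985 UMIs, had one in 24 of 443 (5.42%, 3.50 to 7.95), above the capillary share with overlapping intervals. After thinning, the shares were 0.23% in HFD macrophages and 1.13% in HFD capillary barcodes, again with overlapping intervals. Background in HFD thus differed between classes, and the capillary share was not placed above it. The luminal over capillary fold in HFD is to be read with this uncertain background. The 10% of luminal barcodes with the most Vwf held 28.4% and 28.6% of the luminal Vwf UMIs.

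**Figure D2:**
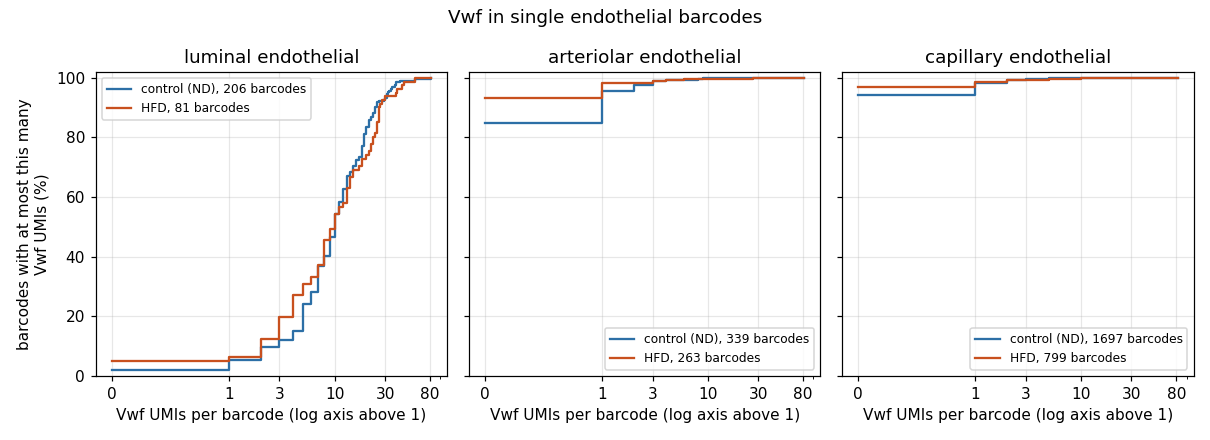
Cumulative share of barcodes (%) with at most a given number of Vwf UMIs (log axis above 1) in luminal, arteriolar and capillary endothelial barcodes of the control (ND) and HFD libraries. The luminal curves of both libraries reach 50% at about 10 UMIs, while over 80% of arteriolar and capillary barcodes have none.

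Over all endothelial barcodes Vwf stood at 283 CPM (ND) and 180 CPM (HFD), a log2 difference (HFD over ND) of -0.65 (-0.75 to -0.56). Within the luminal barcodes the difference was -0.06 (-0.17 to 0.04), and within the capillary ones it was -0.68 (-1.10 to -0.27). Only 6 of 1697 (ND) and 5 of 799 (HFD) capillary barcodes had at least 5 Vwf UMIs. The capillary difference and the luminal over capillary folds lean on these barcodes, which the counting intervals do not cover. Luminal barcodes made up 8.98% of the endothelial class in ND and 6.98% in HFD. Barcodes with markers of several classes lie outside these groups and held 28.1% (1232 of 4379) of the Vwf UMIs in ND. In HFD they held 43.3% (989 of 2284). Their Vwf level was 236 and 259 CPM, a log2 difference of 0.14 (0.01 to 0.26). With the same subgroup mix in both libraries the endothelial difference was -0.18, a setting added after the values were seen. The endothelial value also moved with the limit on mitochondrial UMIs, from -0.26 at 20% to -1.26 at 50%.

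F8 was sparse, and most of its UMIs lay in endothelial barcodes (68 of 91 in ND and 26 of 45 in HFD over all kept barcodes, the rest mainly in barcodes with markers of several classes, 19 and 18). Luminal barcodes held 20 UMIs in ND and 17 in HFD, at 12.9 and 25.5 CPM. The log2 difference was 0.98 with an interval from -0.04 to 1.99, and 9 of the 17 UMIs came from a single barcode. Capillary barcodes held 41 and 3 UMIs, at 5.97 and 0.69 CPM, and the HFD count lay under the minimum of 4 set for reading a ratio. No F8 UMI was counted in T or B barcodes. Of luminal barcodes 8.25% (ND) and 7.41% (HFD) had an F8 UMI, and at this depth a barcode without one cannot be read as lacking F8.

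F3 was high in fibroblasts and was not detected in the luminal endothelium. Fibroblasts held it at 398 CPM (378 to 419; 1490 UMIs) in ND and 166 CPM (147 to 185; 299 UMIs) in HFD. Luminal barcodes had 0 UMIs in both, and 3 UMIs, taken as the limit that a count of 0 allows, would be 1.94 and 4.50 CPM. All endothelial barcodes together had 18 and 4 UMIs, at 1.65 and 0.58 CPM. T barcodes, which should lack the gene, had 4 and 0 UMIs, the former at 5.76 CPM, so the endothelial level of ND was not above background. F3 was also high in the ND airway barcodes (520 CPM, 514 UMIs) and in 27 ND Schwann barcodes (317 CPM, 22 UMIs), and low in adipocyte barcodes (60.0 and 41.3 CPM). The airway barcodes had no counterpart in HFD, so the F3 level over all kept barcodes (89.7 and 23.7 CPM) is not a like comparison. F3 alone of the 8 genes was past 2-fold there, and 9.93% of 14669 genes were past 2-fold lower in all kept barcodes.

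The bases before the F3 start (RefSeq, GRCm38.p6; plus strand, chr3:121723287-121723536) are shown because F3 was past 2-fold between the diets in fibroblasts. Capitals mark AP-1 letters (TGANTCA) and GC boxes (GGGCGG, or CCGCCC on the other strand).

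F3 upstream: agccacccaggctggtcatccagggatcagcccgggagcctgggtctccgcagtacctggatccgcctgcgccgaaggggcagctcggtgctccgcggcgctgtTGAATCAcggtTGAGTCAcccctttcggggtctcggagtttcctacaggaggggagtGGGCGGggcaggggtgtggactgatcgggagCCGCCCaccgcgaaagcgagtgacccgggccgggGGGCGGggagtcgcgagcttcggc

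AP-1 letters occurred 2 times and GC boxes 3 times in these 250 bases. Of 32851 RefSeq promoter windows of the same length, 6.75% held AP-1 letters and 32.7% a GC box. Searching also covered TATAAA (12.4% of windows), GAGGAA (23.3%) and CACGTG (6.02%), each on both strands, and none of these 3 was found here. A match is only a match of letters.

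Within fibroblasts F3 followed the subgroup. The subgroups were set, after values had been seen, by the leading pair of the marker genes Pi16 and Dpp4, Fmod and Wisp2, Inmt and Gdf10, or Cxcl14 and Gdf6. F3 stood at 1106 CPM in 85 Fmod/Wisp2 barcodes of ND and at 662 CPM in 8 of HFD. In Pi16/Dpp4 barcodes (457 and 262) it stood at 189 and 83.8 CPM, 5.86-fold (5.06 to 6.79) and 7.90-fold (4.90 to 12.3) below the Fmod/Wisp2 level. In Inmt/Gdf10 barcodes (132 and 50) it was at 321 and 491 CPM, and in those led by no pair (257 and 56) at 683 and 318 CPM.

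F3 was lower in HFD over all fibroblasts, at a log2 difference of -1.27 (-1.45 to -1.09), which is past 2-fold. In that class 6.67% of 10492 genes were past 2-fold lower and 2.02% past 2-fold higher. The difference was -1.17 (-1.49 to -0.86) in Pi16/Dpp4 barcodes (5.79% of genes were past 2-fold lower there) and -1.10 (-1.50 to -0.73) in those led by no pair (6.65%). Without mitochondrial, haemoglobin and ribosomal genes the Pi16/Dpp4 value was -0.98, not past 2-fold. In Inmt/Gdf10 barcodes F3 went the other way, at 0.61 with an interval from 0.22, not past 2-fold. The Fmod/Wisp2 barcodes were 8.99% of fibroblasts in ND and 2.01% in HFD. With an equal subgroup mix the fibroblast difference was -0.72, no longer past 2-fold. With at most 20% mitochondrial UMIs (801 and 133 barcodes) it was -2.12.

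Tfpi was spread over several cell types at a low level. It was at 86.9 and 82.1 CPM in lymphatic barcodes (17 and 3 UMIs), 47.3 and 42.0 CPM in luminal barcodes, 45.4 and 34.3 CPM in fibroblasts, 14.6 and 20.2 CPM in resident macrophages and 9.75 and 13.3 CPM in capillary barcodes, against 7.20 and 0 CPM in T barcodes. Luminal and fibroblast levels overlapped between the libraries, and so did those of resident, arteriolar, foam and capillary barcodes. Luminal exceeded capillary barcodes 4.85-fold (3.43 to 6.86) in ND and 3.15-fold (1.93 to 5.03) in HFD. The HFD over ND log2 difference was -0.17 (-0.85 to 0.48) in luminal barcodes and -0.40 (-0.85 to 0.02) in fibroblasts, both with intervals that include 0. In Pi16/Dpp4 fibroblasts it was -0.87 (-1.47 to -0.30), on 101 and 35 UMIs.

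**Figure D3:**
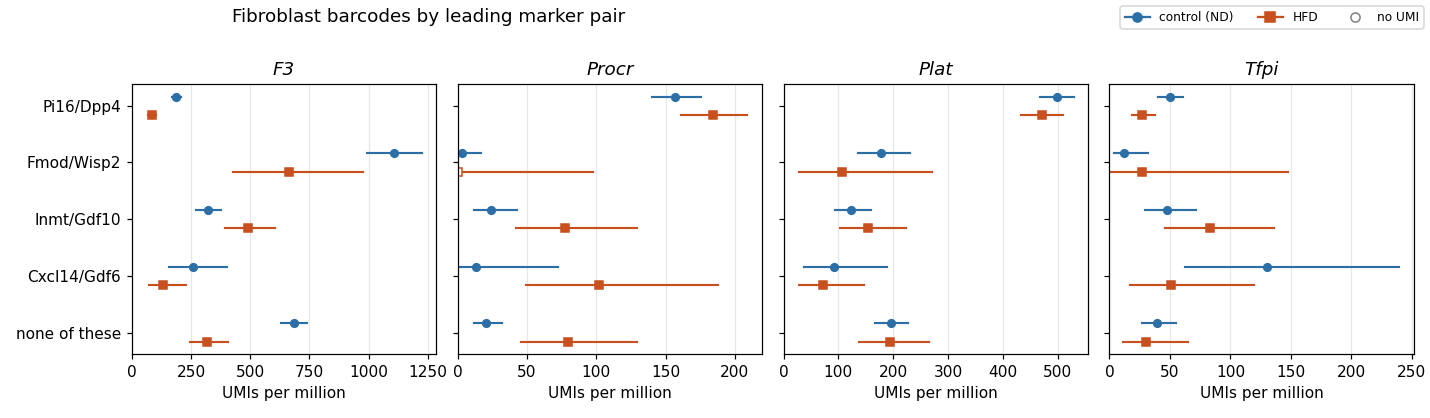
Levels (CPM, linear axis) of F3, Procr, Plat and Tfpi in fibroblast barcodes grouped by their leading marker pair, with circles for the control (ND) library, squares for HFD, an open symbol where no UMI was counted and bars for 95% Poisson intervals. F3 peaks in Fmod/Wisp2 barcodes (1106 and 662), whereas Procr and Plat peak in Pi16/Dpp4 barcodes.

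Procr marked the luminal endothelium and part of the fibroblasts. It was at 276 CPM (250 to 303) and 255 CPM (218 to 296) in luminal barcodes, against 12.04 and 11.4 CPM in arteriolar and 10.5 and 6.67 CPM in capillary ones. The luminal level exceeded the capillary one 26.3-fold (20.5 to 34.3) in ND and 38.3-fold (25.7 to 58.9) in HFD. Lymphatic barcodes held 86.9 and 164 CPM, mural barcodes 132 and 156 CPM on 20 and 5 UMIs, and fibroblasts 93.2 and 153 CPM. T barcodes had 1 and 0 UMIs. The luminal share with a Procr UMI was 66.5% and 67.9%. The luminal diet difference was -0.11 (-0.38 to 0.15), and -0.71 after thinning to 1000 UMIs.

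Fibroblast Procr was higher in HFD, at a log2 difference of 0.72 (0.49 to 0.95), not past 2-fold. Pi16/Dpp4 barcodes carried most of it, at 157 and 184 CPM (difference 0.23, -0.02 to 0.47). Inmt/Gdf10 barcodes were at 23.7 and 77.2 CPM (11 and 14 UMIs) and those led by no pair at 20.1 and 79.6 CPM (17 and 16 UMIs), both past 2-fold higher, as were 4.08% and 4.68% of all genes in these groups. The fibroblast difference was 0.47 with an equal subgroup mix, and 1.08, past 2-fold, after thinning to 1000 UMIs. Pi16/Dpp4 barcodes were 48.3% of fibroblasts in ND and 65.7% in HFD.

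Few fibroblast barcodes had UMIs of both Procr and F3. In the ND library 49 fibroblasts had both, 368 of F3 only, 125 of Procr only and 404 of neither. In the HFD library these counts were 25, 97, 116 and 161. After thinning, 2.13% of ND fibroblasts with F3 had Procr against 7.40% of those without, and in HFD 3.51% against 14.3%. These are shares of cells of a single library each and are given as a description.

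The bases before the annotated Procr gene (RefSeq, GRCm38.p6; plus strand, chr2:155750967-155751116) are shown for comparison with F3. Capitals mark AP-1 letters, found 1 time, and among the 6 genes with a RefSeq window only F3 and Procr held them. Vwf and Plat had no entry.

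Procr upstream: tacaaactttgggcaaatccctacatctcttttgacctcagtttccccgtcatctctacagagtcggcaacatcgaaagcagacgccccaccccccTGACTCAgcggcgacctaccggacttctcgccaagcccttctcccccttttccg

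Plat was highest in fibroblasts and differed between the endothelial subgroups and the diets. Fibroblasts held 347 CPM (328 to 366) in ND and 379 CPM (351 to 408) in HFD, 4.65-fold (4.26 to 5.08) and 3.22-fold (2.91 to 3.57) above the endothelial class. Pi16/Dpp4 fibroblasts held 498 and 470 CPM, Inmt/Gdf10 ones 123 and 154 CPM. Luminal barcodes held 150 and 219 CPM, arteriolar ones 119 and 188 CPM and capillary ones 37.5 and 71.3 CPM. Luminal and arteriolar levels overlapped between the libraries, and capillary levels lay below both. In the arteriolar group 34.8% of ND and 54.4% of HFD barcodes had a Plat UMI, and 12.7% and 18.6% after thinning. T barcodes had 5.76 and 6.26 CPM on 4 and 1 UMIs.

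Endothelial Plat was higher in HFD in each subgroup with enough barcodes. The log2 difference was 0.54 (0.24 to 0.85) in luminal, 0.65 (0.42 to 0.89) in arteriolar and 0.92 (0.68 to 1.17) in capillary barcodes, none past 2-fold as scaled here, and 0.66 (0.51 to 0.80) over the class. In fibroblasts it was 0.13, with an interval up to 0.26 that includes 0, and -0.07 with an equal subgroup mix. The capillary value was 1.08 both with scaling by the median of gene ratios and without mitochondrial, haemoglobin and ribosomal genes, past 2-fold in each. The luminal value was 0.14 after thinning to 1000 UMIs.

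Pros1 was broadly detected, and among groups with at least 20 UMIs it was highest in lymphatic barcodes and then in resident macrophages. Lymphatic barcodes held 312 and 328 CPM on 61 and 12 UMIs, and resident macrophages 187 CPM (162 to 215) and 168 CPM (145 to 194). Luminal barcodes were at 143 and 125 CPM, fibroblasts at 90.03 and 108 CPM, arteriolar barcodes at 95.8 and 60.8 CPM and capillary barcodes at 93.9 and 54.9 CPM. Foam barcodes were lower, at 37.1 and 19.3 CPM on 4 and 31 UMIs, so that resident exceeded foam macrophages 5.05-fold (1.94 to 18.7) and 8.71-fold (5.93 to 13.2). In the ND library 27 Schwann barcodes held 259 CPM on 18 UMIs. T barcodes had 8.64 and 6.26 CPM.

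Pros1 was lower in HFD in capillary barcodes, at -0.77 (-0.99 to -0.56), and in arteriolar barcodes, at -0.66 (-1.001 to -0.32). In luminal barcodes the difference was -0.20 (-0.58 to 0.17), in resident macrophages -0.16 (-0.45 to 0.14) and in fibroblasts 0.26, with an interval up to 0.52 whose lower end lay at 0. Over all macrophages it was -0.95 (-1.22 to -0.68), against -0.18 with an equal subgroup mix and -1.37, past 2-fold, with at most 20% mitochondrial UMIs.

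F13a1 was highest in resident macrophages, where its intervals in both groups overlapped. They held 1532 CPM (1460 to 1608; 1679 UMIs) in ND and 1543 CPM (1470 to 1619; 1681 UMIs) in HFD, a log2 difference of 0.01 (-0.09 to 0.11). The median resident barcode had 6 and 7 UMIs, the highest 32 and 39, and 93.3% and 97.04% had at least 1. Monocytes followed at 278 and 245 CPM on 40 and 14 UMIs, and other macrophages at 150 and 327 CPM, a range that overlapped with that of monocytes. Foam macrophages were at 139 CPM in 9 ND barcodes (15 UMIs) and 25.5 CPM in 166 HFD barcodes (41 UMIs, 10.8% of barcodes with a UMI). T barcodes had 14.4 and 12.5 CPM on 10 and 2 UMIs, and no UMI was counted in luminal endothelium.

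Resident macrophages exceeded foam macrophages 11.03-fold (6.67 to 19.7) in ND and 60.5-fold (44.4 to 84.7) in HFD. Over all macrophages F13a1 was at 1114 and 594 CPM, a log2 difference of -0.91 (-1.002 to -0.81). Foam barcodes were 2.78% of macrophages in ND and 37.5% in HFD, and with an equal subgroup mix the difference was 0.029. With at most 20% mitochondrial UMIs it was -1.66. In macrophages in neither subgroup it was 1.12 (0.67 to 1.60), on 55 and 147 UMIs, past 2-fold higher, where 6.1% of 4326 genes were.

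The bases before the F13a1 start (RefSeq, GRCm38.p6; minus strand, chr13:37050245-37050494) are shown as the myeloid member. Capitals mark GAGGAA, the core letters bound by the myeloid factor PU.1, found 1 time here and in 23.3% of all windows. The window of another RefSeq start of F13a1 (chr13:37049214-37049463) held no match. Tfpi, which is not a myeloid gene here, had a match as well.

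F13a1 upstream: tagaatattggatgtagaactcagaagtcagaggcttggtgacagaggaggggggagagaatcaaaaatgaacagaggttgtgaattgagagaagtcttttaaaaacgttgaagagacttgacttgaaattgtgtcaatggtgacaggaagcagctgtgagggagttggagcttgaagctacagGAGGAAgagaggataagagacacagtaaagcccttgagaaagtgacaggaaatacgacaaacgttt

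**Figure D4:**
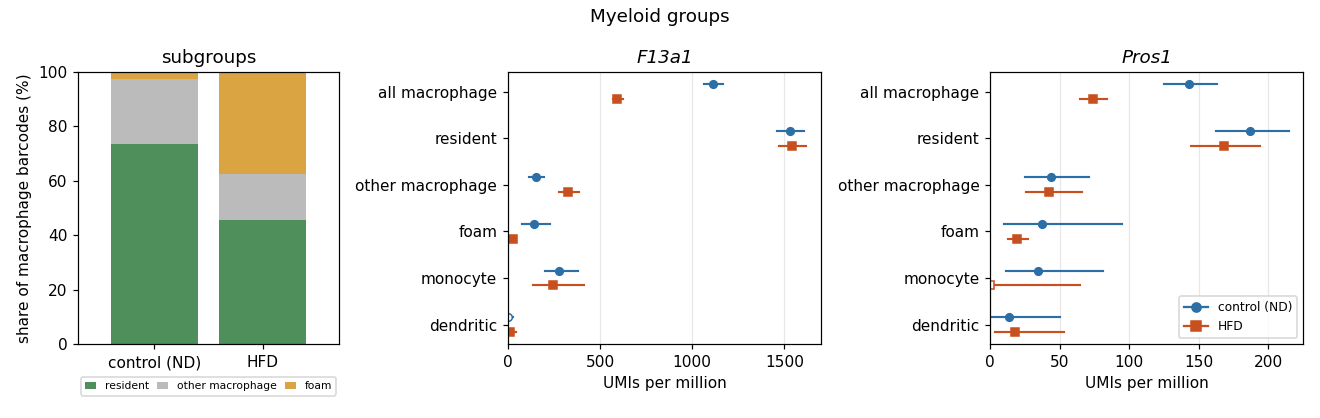
Left, share of macrophage barcodes (%) in the resident, other and foam subgroups of each library; middle and right, levels of F13a1 and Pros1 (CPM, linear axis) in myeloid groups, with circles for the control (ND) library, squares for HFD, open symbols where no UMI was counted and bars for 95% Poisson intervals. Resident macrophages hold 1532 and 1543 CPM of F13a1, while foam macrophages make up 2.78% (ND) and 37.5% (HFD) of the class.

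Across the diets few members were past 2-fold. A ratio was read where a gene reached 20 UMIs over the pair of libraries and no fewer than 4 in each one. In endothelial barcodes all 8 passed and 1, F3 (18 and 4 UMIs), was past 2-fold lower, with a log2 difference of -1.52 and an interval from -3.54 to 0.08, at a level not above that of T barcodes. Of 12079 genes in that class, 7.17% were past 2-fold lower and 2.56% past 2-fold higher. In luminal barcodes 6 passed and none was past 2-fold (of 8426 genes 3.2% were higher and 5.19% lower), and in arteriolar barcodes 5 passed and none was (8.92% in either direction). In capillary barcodes 6 passed and 1 was past 2-fold higher (3.35% of genes were higher and 7.2% lower). That was F13a1, on 11 and 14 UMIs, with an interval from -0.24 to 2.29, and at 1.60 and 3.22 CPM it was below the level in T barcodes. In fibroblasts 5 passed and 1, F3, was past 2-fold lower. In macrophages 5 passed and none was past 2-fold (3.98% of genes were higher and 7.72% lower), and in resident macrophages 3 passed and none was (2.14% and 4.87%). The median difference of the members that passed was -0.64 in endothelial, 0.13 in fibroblast and -0.05 in macrophage barcodes, beside -0.17, -0.17 and -0.11 over all genes that passed. Within the endothelial subgroups it was nearer to that of all genes. It was -0.09 in luminal, -0.08 in arteriolar and -0.10 in capillary barcodes, beside -0.03, -0.13 and -0.17 over all genes. Scaling by the median of gene ratios, in place of all UMIs, would raise every value by 0.15 in endothelial and by 0.14 in fibroblast and macrophage barcodes, and the differences above are to be read against that. These shifts hold for the whole classes and not for their subgroups. In luminal barcodes this scaling lowered the values slightly, for Vwf from -0.06 to -0.08 and for Procr from -0.11 to -0.13.

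**Figure D5:**
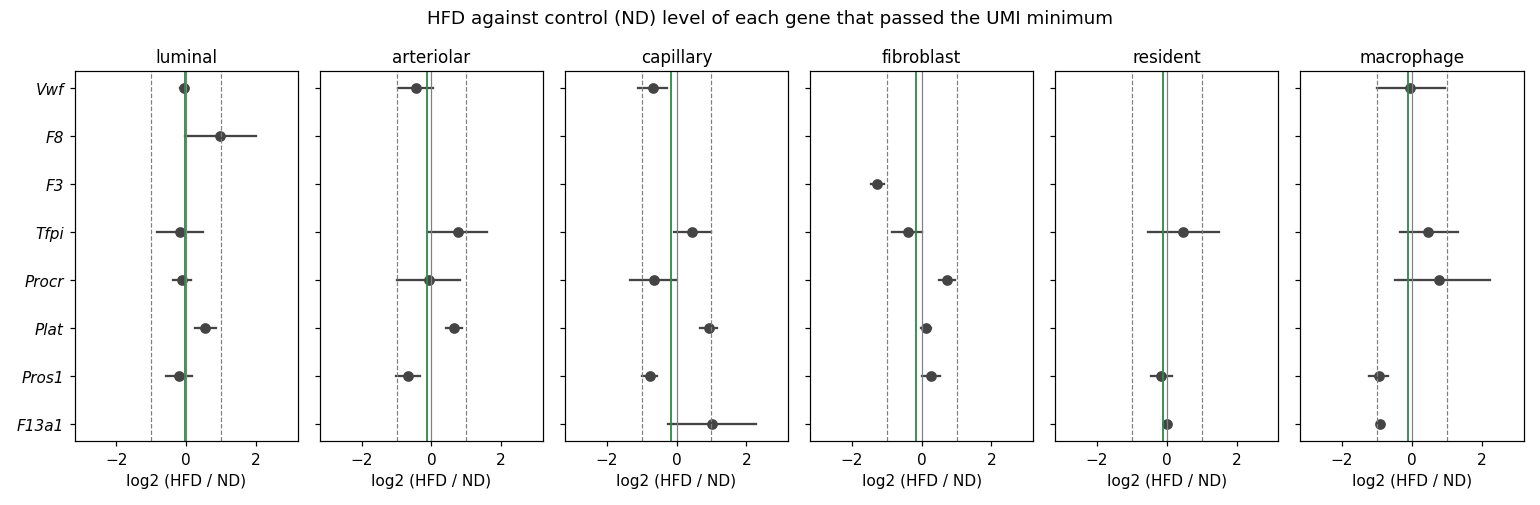
Log2 difference of level (HFD over ND) for each gene that passed the UMI minimum, by group, with bars for 95% conditional binomial intervals, a green line at the median of all genes that passed, a grey line at 0 and dashed lines at 2-fold. Fibroblast F3 (-1.27) lies past the dashed line, and luminal Vwf (-0.06) and resident F13a1 (0.01) lie at 0.

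A list of 50 further haemostasis genes was read in these groups, arteriolar barcodes aside. Of those that passed the UMI minimum, 26 of 33 in endothelial, 22 of 26 in luminal, 20 of 30 in capillary and 12 of 21 in macrophage barcodes stayed within 2-fold. In these groups the share past 2-fold was larger than over all genes. With 23 of 25 within 2-fold in fibroblasts and 17 of 18 in resident macrophages, it was near that of all genes there. The list was not tested as a set. In luminal barcodes 26 passed, 4 were past 2-fold higher in HFD and 0 lower, where 3.2% and 5.19% of all genes were. Among these were Mgp, the matrix Gla protein (3391 and 7730 CPM), Selp, the P-selectin stored with Vwf (232 and 497 CPM), and F2rl1, a protease-activated receptor (29.8 and 61.5 CPM). In capillary barcodes 30 passed, 4 higher (Anxa2, Plaur, Lrp1 and Entpd1) and 6 lower (F2r, Plau, Thbs1, Rab27a, Ggcx and Ptgs1), against 3.35% and 7.2% of all genes. In the endothelial class 33 passed, 3 higher (Plaur, Anxa2 and Lrp1) and 4 lower (Serpine2, Plau, Thbs1 and Ptgs1), against 2.56% and 7.17% of all genes, and Mgp stood highest in both libraries (532 and 829 CPM). In fibroblasts 25 passed and 2 were past 2-fold lower, Mgp (5176 and 1167 CPM) and F2r, the thrombin receptor (53.4 and 13.3 CPM), and 6.67% of all genes were past 2-fold lower there.

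In macrophages 21 of the 50 passed, 4 higher and 5 lower, against 3.98% and 7.72% of all genes. Among the higher was F7, factor VII, the plasma partner of tissue factor, at 3.18 and 42.6 CPM on 5 and 134 UMIs. Of those, 115 came from HFD foam macrophages (71.5 CPM), against 2 UMIs in HFD resident macrophages. F10 (7.01 and 28.0 CPM), Tgm2 (35.7 and 158 CPM) and Thbs1 (42.0 and 142 CPM) were the others higher, and those lower included Stab1, Thbd, Ptgs1 and Mgp. In resident macrophages 18 passed and 1, Thbs1, was past 2-fold higher, as were 2.14% of all genes. The median of the listed genes that passed was -0.24 in endothelial, -0.24 in fibroblast and 0.05 in macrophage barcodes.

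The genes with the most similar profile over the 16 combinations of class and library with at least 20 barcodes were found by Pearson r of log2(CPM + 10) among 10790 genes. These combinations share libraries, and r is a description. The compared genes had at least 200 UMIs, a minimum that F8 (136 UMIs) did not reach. F8 stood at only 6.24 and 3.75 CPM in endothelial barcodes, so its r values rest on little signal. They were Notch4 (0.96), Flt4 (0.95) and Emcn (0.92) for Vwf, and Ptk6 (0.98), Gm11730 (0.96) and Nos3 (0.96) for F8. For F3 they were Pfn2 (0.93), Abi3bp (0.92) and Clip4 (0.89), for Tfpi they included Dlgap4 (0.93) and Nynrin (0.93), and for Procr Fam124a (0.97), Tmtc1 (0.97) and Nynrin (0.96). Plat had Slc43a3 (0.95), Fbln2 (0.94) and Sfrp1 (0.94), those of Pros1 included Anxa5 (0.92) and Spred1 (0.92), and F13a1 had Msr1 (0.98), Mrc1 (0.98) and Ms4a6d (0.98). With the endothelial and macrophage subgroups in place of their classes (25 combinations), a choice made after values were seen, Vwf had Myrip (0.90), Selp (0.89) and Nuak1 (0.89).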

How the data were processed

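Dissociated aortic arch gave 1 library per diet, 10x Genomics per the labels, sequenced on an Illumina instrument. The authors deposited raw UMI counts per gene and barcode made with Cell Ranger (version not given in the sources used here; the matrix header names software version 3.0.1), and the submitters' processing notes name the build mm10. A joined table of both libraries, whose total equals the sum of theirs, was not used. The study gives 5416 and 2739 cells after its filter, and the stated limits left 5416 and 2739 barcodes here. UMIs were summed per class and library and given as CPM (scaled to 1000000), with exact Poisson intervals for levels, Clopper-Pearson intervals for shares, and conditional binomial intervals for ratios, all at 95%. A count of 0 allows 3 UMIs. PCR duplicates were collapsed by UMI. No doublet caller was run: barcodes with at least 3 markers of several classes (596 and 457) were set apart as mixed. Python 3.11.15, NumPy 2.4.6, SciPy 1.17.1 and pandas 2.3.3 were used, and the ratio step was tested on simulated data. Members, gene lists and gates were chosen with earlier results of these data known. Named were all 8 members, the listed genes with the largest level or past 2-fold, and the 3 most similar genes per member, of which some are not reported here. With a single library per diet no test was made, and p-values would measure nothing beyond counting. Alternatives covered the mitochondrial limit, the gates, scaling, barcode weight, thinning to 1000 UMIs with random seed 7, depth and the UMI minimum.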

Additional observations from a re-analysis of the deposited data

Results flagged for a closer look

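Procr had log2 differences (HFD over ND) of opposite sign in fibroblasts (0.72) and in capillary endothelium (-0.65), a difference between groups that was not tested. Pros1 did so in fibroblasts (0.26) against arteriolar (-0.66) and capillary endothelium (-0.77), which was not tested either. Barcodes over the mitochondrial limit, which the comparisons leave out, also held the members. In luminal barcodes of that kind Vwf stood at 3850 CPM in the ND library (11 barcodes) and 1329 CPM in the HFD library (26 barcodes). In fibroblasts of that kind F3 stood at 482 CPM (ND) and 250.02 CPM (HFD), and in resident macrophages F13a1 stood at 602 CPM (ND) and 970 CPM (HFD).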

How the results depend on the processing

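Each value is a log2 difference (HFD over ND). No paired analysis was possible because each diet has 1 library, and no replicate could be left out. Over 6 differences (Vwf endothelial and luminal, F3 fibroblast, F13a1 macrophage and resident, Plat endothelial), 38 values stayed within the counting interval and 35 did not. The setting named at least 2 of 6 markers kept fewer barcodes (endothelial 2006 and 916) than the main gate (2293 and 1161), so it was stricter. Its groups nearly matched those with at most 1 other marker (2000 and 915). These settings are close to a repeat of each other, though both are counted. Luminal Vwf and F13a1 of resident and of all macrophages changed sign in some settings, and F3 lost its place past 2-fold with the equal mix. For endothelial Vwf (-0.65) the values outside it were -0.26 and -1.26 with mitochondrial limits of 20% and 50%, -0.36 with no limit on other markers, -0.38 with a gate on Pecam1 and Cdh5, -0.50 with the median of ratios, -0.53 without mitochondrial, haemoglobin and ribosomal genes, -0.50 after thinning, -0.46 without barcodes over 5% haemoglobin and -0.18 with an equal subgroup mix. Luminal Vwf (-0.06) was -0.21 with at least 2 of 6 markers, 0.076 with no limit, -0.22 with at most 1 other marker, 0.091 with the Pecam1 and Cdh5 gate and -0.17 as a mean of barcodes, with 9 of 12 settings keeping its sign. Fibroblast F3 (-1.27) was -2.12 and -1.07 at 20% and 50%, -1.04 with 2 markers, -1.04 with at most 1 other, -1.08 without those genes and -0.72 with an equal mix. Macrophage F13a1 (-0.91) was -1.66 at 20%, -1.08 with 2 markers, -1.07 with at most 1 other, -0.77 with the median of ratios, -0.64 as a mean, -0.69 thinned, -0.70 without the 6% deepest barcodes and 0.029 with an equal mix. Resident F13a1 (0.01) was 0.19 and -0.11 at 20% and 50%, 0.12 with the median of ratios, 0.11 without those genes and -0.10 thinned, with 5 of 11 settings keeping its sign. Endothelial Plat (0.66) was 0.49 at 50% and 0.81 with the median of ratios. The cause of these shifts was not tested. The haemoglobin limit and the equal mix were added after the data were seen. Of the other values, 148 stayed within the interval and 28 did not. F8 rests on few UMIs.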
